A study of Mus musculus with 12 samples.

Results

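Adamts4 and 9 genes that build, trim or carry the sugar chains of proteoglycans were described in myelinating oligodendrocytes sorted from mice with or without Cre-driven recombination of Lmna. The group holds the protease Adamts4, the core proteins Spock2 and Gpc1, the chondroitin and dermatan sulfate enzymes Chpf, Chst3, Dse and Ust, the HNK-1 enzymes B3gat2 and Chst10, and the extracellular sulfatase Sulf1. Members were found by matching the gene identifiers of the deposited count table to these symbols, and 10 of 10 were found among its 2398 genes, 6 on chromosome 1 and 4 on chromosome 10. The members were chosen with the KO against WT differences of these data known, and partly selected on that of Adamts4. Differences between the genotypes, with their SE and 95% intervals, are therefore given for the members as a description. How many members passed a rule applied to all genes is printed beside the share of all genes that did, and supports nothing about the members.

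Lmna encodes lamins A and C, filaments that line the inner side of the nuclear envelope. The cells were sorted from the brains of C57BL/6 mice as positive for the Ndrg1-EGFP reporter, which marks oligodendrocytes that make myelin, and negative for propidium iodide, which stains dead cells. Both groups carried the reporter and floxed Lmna alleles. WT animals were Cnp+/+;Lmnafl/fl and KO animals were CnpCre/+;Lmnafl/fl, so Cre came from the locus of the oligodendrocyte gene Cnp and KO animals kept 1 unmodified Cnp copy. No group with Cre and unfloxed Lmna was analysed here, so Cre, the lost Cnp copy and the recombination of Lmna cannot be told apart. Age is labelled as postnatal day 60 and, in the growth protocol, as 8 weeks.

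Each genotype had 3 biological replicates, each sequenced as 2 libraries that were summed here. The table used here covers chromosome 1 and chromosome 10 up to 111.3 Mb, so Lmna and Cnp were not analysed here and the recombination of Lmna was not checked. A replicate had 3694551 to 6093336 counts in the genes of the table, a part of the library that does not give its depth. Levels are counts per 1000000 counts of the genes in the table (CPM), scaled with TMM factors. Of the markers of mature oligodendrocytes, 5 of 35 were in the table, Tmeff2, Nfasc, Csrp1, Sgk1 and Adamts4 itself, and together they took 62761 to 103527 CPM in WT and 69491 to 106986 CPM in KO. Most of the range of this sum came from Sgk1, at 10429 to 46207 CPM in WT and 13199 to 45887 CPM in KO. Markers of other cells were lower but present, with 356 to 799 CPM in WT and 484 to 1095 CPM in KO for 3 of 19 astrocyte markers and 41.5 to 85.5 CPM and 47.0 to 242 CPM for 2 of 20 microglia markers. The 1 of 20 listed endothelial markers in the table, Bsg, was at 2989 to 4474 CPM in WT and 3166 to 4192 CPM in KO. A single marker cannot show how much RNA came from endothelial cells, and its source was not tested. For 2 of 19 neuron markers, Scg2 and Syt1, the sum was 7.03 to 247 CPM in WT and 10.5 to 46.8 CPM in KO. WT replicate 3 had the highest neuron sum, with Scg2 at 226 CPM. The myelin genes Mbp and Mog lie elsewhere and were not analysed here.

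Proteoglycans are proteins that carry long sulfated sugar chains. A linker of sugars is first attached to the core protein, the chain is then extended as chondroitin or heparan sulfate, and sulfotransferases and epimerases finish it in the Golgi apparatus. In the brain, chondroitin sulfate proteoglycans such as the lectican family fill the matrix around axons and nodes of Ranvier and inhibit axon growth after injury, and ADAMTS proteases cut lectican cores. Heparan sulfate chains bind growth factors, and sulfatases such as Sulf1 remove sulfate groups from them outside the cell.

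In these cells Adamts4 was by far the most abundant of the members, and 3 members, Adamts4, Spock2 and Ust, stood higher in every KO replicate than in every WT replicate. The other 7, Gpc1, Chpf, Chst3, Chst10, Dse, B3gat2 and Sulf1, had overlapping groups. Among all 1484 genes tested, 66 (4.45%) had every KO replicate above every WT replicate and 60 (4.04%) had every one below, where none of the members was found. Log2 fold changes of KO over WT were positive for 7 members and negative for 3, with a median of 0.22 over the members and -0.0064 over all genes tested, of which 49.5% were positive. No member had an adjusted p under 0.05 in edgeR's quasi-likelihood test, and neither did any other gene (0 of 1484, 0%). At an unadjusted p under 0.05 the edgeR test had 40 genes higher in KO (2.7%), the same 3 members among them, and 59 genes in both directions. DESeq2, run as an alternative, had 6 genes higher in KO at an adjusted p under 0.05 (0.404%), of which Adamts4 was the only member, and limma-voom had 0. Without KO replicate 2, DESeq2 called 0 genes, with Adamts4 at an adjusted p of 0.0561. With any other replicate left out, DESeq2 called Adamts4 among 3 to 11 genes higher in KO. Spock2 was called only without WT replicate 1 (DESeq2 adjusted p = 0.0315). Since this contrast was known when the group was drawn up, nothing is read from these counts.

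**Figure D1:**
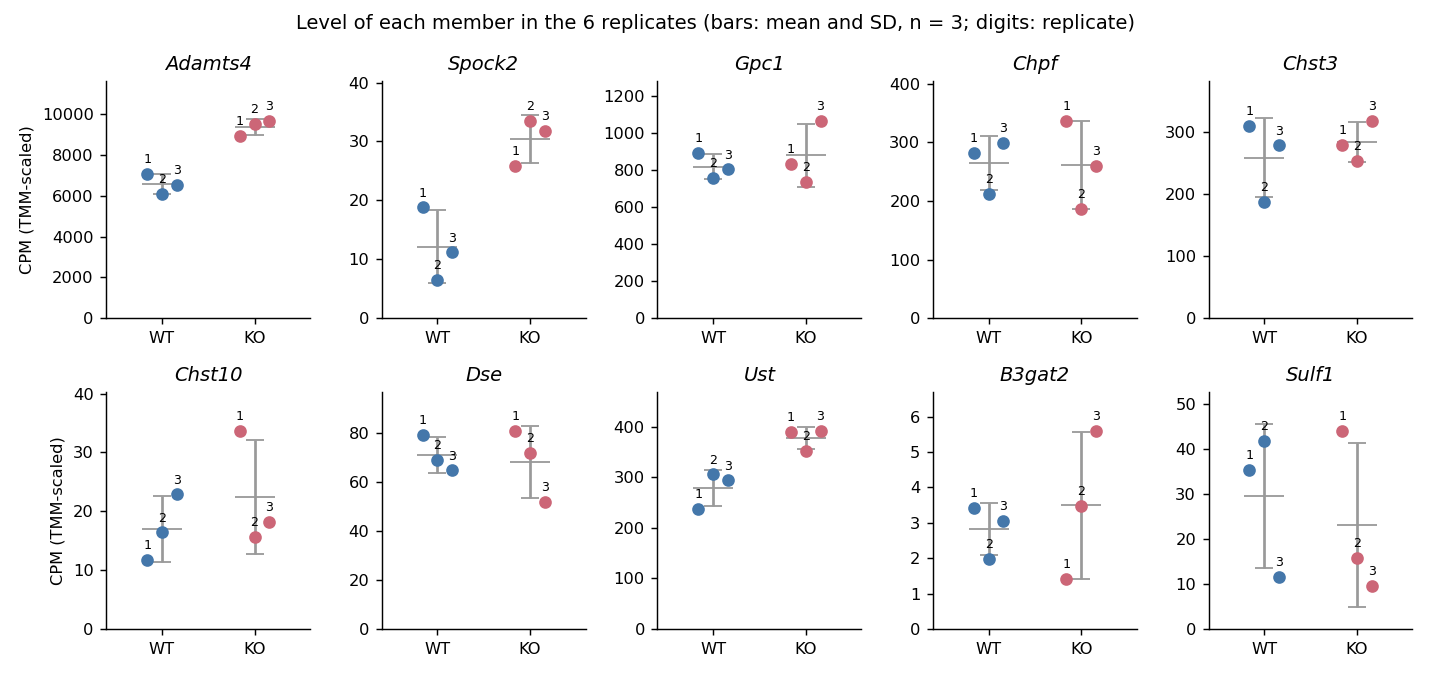
Level of each member in TMM-scaled CPM (linear axes from 0, one panel per gene) for 3 WT (blue) and 3 KO (red) replicates, with the digit naming the replicate and grey bars the mean and SD. In the panels of Adamts4, Spock2 and Ust every KO point lies above every WT point, and in the other 7 panels the groups overlap.

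Adamts4, also called aggrecanase 1, is a secreted metalloprotease that cuts the lecticans aggrecan, brevican and versican, and within the brain it is known as a gene of myelinating oligodendrocytes. It is Entrez gene 240913 and spans chr1:171250129-171262267 on the plus strand of mm10. It stood at 7089, 6114 and 6538 CPM in WT replicates 1 to 3 and at 8941, 9521 and 9693 CPM in KO replicates 1 to 3. All KO values lay above all WT values, and the lowest KO value was 1.26 times the highest WT value. The means were 6580.3 ± 489 CPM in WT against 9385 ± 394 CPM in KO (SD, n = 3), a ratio of 1.43 and a log2 fold change of 0.51 ± 0.11 (SE), with a 95% interval from 0.27 to 0.76. As in all bulk samples, a change in the share of a cell type and a change in RNA per cell cannot be told apart.

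Between 24618 and 60160 counts per replicate lay behind these values, so counting error was 0.503% of the mean level, far under the fitted spread between replicates. That spread, the biological coefficient of variation, was 11.5% for Adamts4 against a median of 22.3% over the genes tested. The fit draws each gene's value toward that of genes of similar level, so it is not the gene's own spread alone. Adamts4 alone took 0.592 to 0.987% of all counts of a replicate and ranked 20 of 1484 genes by mean CPM, which takes no account of length. Per kilobase of the longest transcript it ranked 35 of the 1336 tested genes with a known length. Of the 7 listed hyalectanases, the ADAMTS proteases that cut lecticans, Adamts4 was the one in the table.

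The genes whose profile over the 6 replicates lay closest to that of Adamts4 were Igsf8, Kif1a, Nfasc, Pea15a and Eef2, in that order. Likeness was the root mean square difference of log2 CPM, each gene centred on its own mean, over 959 genes with a mean of at least 50 CPM. The distance was 0.08 for Igsf8, 0.11 for Kif1a, 0.13 for Nfasc and 0.15 for Pea15a and Eef2, against a median of 0.33 over the candidates and 0.27 for a gene that did not vary at all. A gene close to Adamts4 has its KO values above its WT values because of how it was picked. Igsf8, which encodes a tetraspanin-associated immunoglobulin protein, stood at 6539 ± 977 CPM in WT against 8898 ± 644 CPM in KO (SD, n = 3). Nfasc, which encodes neurofascin at nodes and paranodes, stood at 4786 ± 578 CPM in WT against 6432 ± 845 CPM in KO. Kif1a, a kinesin motor gene, was at 6295 ± 485 and 7750.0 ± 231 CPM in the same order. Pea15a stood at 15987 ± 1095 CPM in WT against 20015 ± 589 CPM in KO, and Eef2, translation elongation factor 2, at 3863 ± 261 and 4571 ± 311 CPM. Igsf8 and Pea15a start at bases 172312367 and 172196728 of chromosome 1, where Adamts4 ends at base 171262267. Kif1a and Nfasc start farther off on that chromosome, at bases 93015455 and 132564690, and Eef2 lies on chromosome 10. A link between position and profile was not tested. Of the other members Ust lay closest to Adamts4 at a distance of 0.19, followed by Gpc1 and Chst3 at 0.26, and Sulf1 lay farthest at 1.01.

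**Figure D2:**
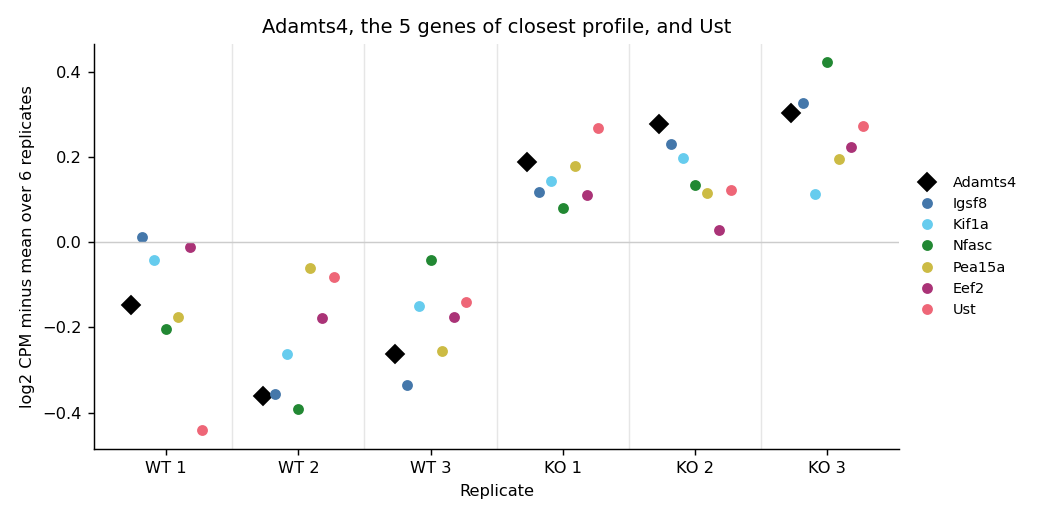
Log2 CPM minus each gene's mean over the 6 replicates (vertical axis), by replicate (horizontal axis), for Adamts4 (black diamonds), the 5 genes of closest profile and Ust (coloured circles). Adamts4 is below its mean in the 3 WT replicates and above it in the 3 KO replicates, and Ust, at a distance of 0.19, is lowest in WT replicate 1.

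Among the core proteins, Spock2 and Gpc1 gave different pictures. Spock2 encodes testican 2, a secreted calcium-binding proteoglycan of brain matrix that carries heparan and chondroitin sulfate. It is Entrez gene 94214, at chr10:60106257-60135198 on the plus strand. Its level was 18.8, 6.46 and 11.2 CPM in WT replicates 1 to 3 and 25.9, 33.6 and 31.9 CPM in KO replicates 1 to 3. No KO value was as low as the highest WT value, WT replicate 1, and the WT values themselves differed more from each other than the KO values did. The means were 12.1 ± 6.23 CPM and 30.4 ± 4.01 CPM (SD, n = 3), a ratio of 2.51 and a log2 fold change of 1.32 ± 0.46 (SE), with a 95% interval from 0.27 to 2.37. This was the largest fold of the group and rested on few counts, 99, 26 and 62 in WT and 91, 212 and 154 in KO. Counting error alone was 9.65% at the mean count of 107.3, and larger in replicates with fewer counts, as in WT. Its fitted spread between replicates was 43.8%.

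Promoters are shown for 4 members, the KO-higher genes Spock2 and Ust, then Chst3, the neighbour of Spock2, and Chpf, whose groups overlapped and whose window held a site rare among promoters. Each window runs 250 bases before to 50 after the RefSeq start in GRCm38.p6, 5′ to 3′ along the gene's strand. The windows of Chst3 and Dse lie inside the gene spans given below, so the start used is not the outer end of those spans. Capitals mark matches, on either strand, to the GC box (GGGCGG), the cAMP response element (TGACGTCA), the SOX core (ACAAAG or ACAATG), the MYRF core (CTGGNAC), the TATA box (TATAAA) and the CCAAT box (CCAAT). No listed motif overlaps another in these windows. The windows are chr10:60106007-60106306 (plus strand) for Spock2, chr10:8518776-8519075 (minus strand) for Ust, chr10:60219211-60219510 (minus strand) for Chst3 and chr1:75479422-75479721 (minus strand) for Chpf.
Spock2: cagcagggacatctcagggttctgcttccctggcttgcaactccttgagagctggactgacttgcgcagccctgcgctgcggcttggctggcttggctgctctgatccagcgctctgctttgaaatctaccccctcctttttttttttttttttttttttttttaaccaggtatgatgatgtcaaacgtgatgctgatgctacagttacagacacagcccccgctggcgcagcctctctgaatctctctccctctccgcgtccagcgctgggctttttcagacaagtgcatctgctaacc
Ust: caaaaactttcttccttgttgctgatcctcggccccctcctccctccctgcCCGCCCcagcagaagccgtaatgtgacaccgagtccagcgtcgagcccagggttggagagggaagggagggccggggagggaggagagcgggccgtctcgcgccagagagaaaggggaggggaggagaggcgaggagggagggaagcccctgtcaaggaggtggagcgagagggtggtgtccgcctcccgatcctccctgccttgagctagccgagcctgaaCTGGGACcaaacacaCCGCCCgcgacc
Chst3: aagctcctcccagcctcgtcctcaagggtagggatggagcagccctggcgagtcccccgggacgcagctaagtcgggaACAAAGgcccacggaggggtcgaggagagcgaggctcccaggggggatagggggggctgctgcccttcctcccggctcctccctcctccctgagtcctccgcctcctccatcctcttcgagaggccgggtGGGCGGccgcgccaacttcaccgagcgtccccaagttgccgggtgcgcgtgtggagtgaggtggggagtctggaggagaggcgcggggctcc
Chpf: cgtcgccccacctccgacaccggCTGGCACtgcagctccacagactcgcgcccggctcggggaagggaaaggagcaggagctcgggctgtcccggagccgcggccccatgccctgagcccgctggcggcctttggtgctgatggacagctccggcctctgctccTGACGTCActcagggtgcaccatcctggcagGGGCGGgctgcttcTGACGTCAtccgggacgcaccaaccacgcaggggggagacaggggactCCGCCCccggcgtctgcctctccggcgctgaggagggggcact

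The RefSeq table held a promoter for 6 of the 10 members, these 4 with Chst10 and Dse, and not for Adamts4, Gpc1, B3gat2 and Sulf1. The Spock2 window held none of the motifs and was 52.3% G and C with 10 CpG pairs, near the median over 32851 promoters of 27025 genes, 52.7% with 7 CpG pairs. The Ust window was 66.3% G and C with 19 CpG pairs and held 2 GC boxes and 1 MYRF core. Chst3 had 70.0% with 22 CpG pairs, 1 GC box and 1 SOX core. In Chpf, with 71.7% and 26 CpG pairs, there were 2 cAMP response elements, 2 GC boxes and 1 MYRF core. The Dse window, 75.3% G and C with 33 CpG pairs, held 3 GC boxes and 1 CCAAT box, and that of Chst10, 53.3% with 21, held 2 SOX cores and 1 CCAAT box. Of all promoters, 35.7% held a GC box, 28.6% a SOX core, 19.3% a MYRF core, 37.4% a CCAAT box, 13.6% a TATA box and 1.79% the cAMP response element. The matched members whose KO replicates were all higher, Spock2 and Ust, shared none of these motifs.

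Gpc1 encodes glypican 1, a heparan sulfate proteoglycan tied to the cell membrane by a lipid anchor. Entrez gene 14733 lies at chr1:92831645-92860211 on the plus strand. It stood at 894, 761 and 805 CPM in WT and at 834, 739.7 and 1069.6 CPM in KO, so the highest and the lowest value were both in KO. Means of 820.3 ± 67.8 and 881 ± 170 CPM (SD, n = 3) gave a log2 fold change of 0.10 ± 0.15 (SE), with a 95% interval from -0.24 to 0.44. Gpc1 shares 977 exonic bases, 18.9% of its exons, with Ankmy1 on the opposite strand, which was at 0.935 ± 1.16 CPM in WT against 2.28 ± 0.257 CPM in KO. The strand setting of the counting step is unknown from the labels and file headers. The microRNA gene Mir149, inside Gpc1, had no counts.

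The other core protein genes were taken from lists that cover the whole genome, and few of them lie in the table. Of 24 listed chondroitin sulfate core proteins 5 were tested, Spock2, Tmeff2, Dcn, Col9a1 and Srgn, and none was called. The median log2 fold change was 0.43 with Spock2 and 0.24 over the 4 others. Tmeff2, a transmembrane proteoglycan with follistatin modules, was the most abundant at 18851 ± 3057 CPM in WT against 19522 ± 732 CPM in KO (SD, n = 3), with overlapping groups. Dcn, the fibroblast proteoglycan decorin, stood at 106 ± 69.6 and 143 ± 34.7 CPM, and Col9a1, a collagen chain that can carry chondroitin sulfate, at 54.6 ± 23.9 and 51.8 ± 8.05 CPM. Srgn, singled out after its values were seen, encodes serglycin, the proteoglycan of blood cell granules. It was at 25.8, 18.4 and 9.36 CPM in WT and 40.1, 139.9 and 27.3 CPM in KO, all KO values above all WT values, and was not called (edgeR log2 fold change 1.96 ± 0.66, SE, adjusted p = 0.927). The leukocyte marker Ptprc was highest in the same KO replicate 2, at 24.1, 9.93 and 16.9 CPM in WT and 65.5, 106 and 14.9 CPM in KO, and its part in the Srgn values was not tested. Of 17 heparan sulfate core proteins Gpc1 and Col18a1 were tested. Col18a1 was at 4.22 ± 3.45 CPM in WT against 2.50 ± 2.17 CPM in KO, and per length Gpc1 lay above it in 6 of 6 replicates. The small leucine-rich proteoglycans had 4 of 16 tested, with none called and a median of -0.44, among them Prelp at 36.5 ± 26.6 and 26.0 ± 11.7 CPM and Fmod at 11.2 ± 4.08 and 8.52 ± 1.05 CPM.

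Of the chondroitin and dermatan sulfate enzymes, Ust differed from Chpf, Chst3 and Dse in that its groups did not overlap. Ust encodes the uronyl 2-O-sulfotransferase, which adds sulfate to iduronic or glucuronic acid in the finished chain. It is Entrez gene 338362, at chr10:8204753-8518825 on the minus strand. It was at 238, 306 and 294 CPM in WT replicates 1 to 3 and at 390.4, 353 and 391 CPM in KO replicates 1 to 3. WT replicate 1 was the lowest of the 6, and the lowest KO value was 1.15 times the highest WT value. Means of 279 ± 36.1 CPM in WT against 378 ± 21.9 CPM in KO (SD, n = 3) gave a ratio of 1.35 and a log2 fold change of 0.44 ± 0.13 (SE), with a 95% interval from 0.13 to 0.74. Counting error was 2.50%, and the fitted spread between replicates was 15.3%, below the median of all genes tested.

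Chpf encodes the chondroitin polymerizing factor, which works with the chondroitin synthases to lengthen the chain. Entrez gene 74241 lies at chr1:75474569-75479471 on the minus strand. It was at 282, 212 and 299 CPM in WT and 337, 187 and 260.0 CPM in KO, where KO replicate 1 was the highest and KO replicate 2 the lowest of the 6. The means were 264 ± 45.8 and 261 ± 75.1 CPM (SD, n = 3), with a log2 fold change of -0.019 ± 0.22 (SE) and a 95% interval from -0.53 to 0.49.

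Chst3, the chondroitin 6-O-sulfotransferase 1 gene, adds sulfate to the 6 position of N-acetylgalactosamine. Entrez gene 53374 lies at chr10:60181527-60222114 on the minus strand, its 3′ end facing that of Spock2 across 46328 bp with 0 other genes of the table between. Chst3 stood at 309, 187 and 278 CPM in WT and 278, 253 and 318 CPM in KO, with means of 258 ± 63.8 and 283 ± 32.6 CPM (SD, n = 3). WT replicate 2 was the lowest, as it was for Spock2, but here the groups overlapped. The log2 fold change was 0.13 ± 0.19 (SE), with a 95% interval from -0.31 to 0.57.

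Dse encodes dermatan sulfate epimerase, which turns glucuronic into iduronic acid and so makes dermatan out of chondroitin sulfate. Entrez gene 212898 lies at chr10:34151389-34208282 on the minus strand. Its 3 WT values ran from 64.6 to 79.2 CPM and its 3 KO values from 51.7 to 80.6 CPM, with means of 70.9 ± 7.51 and 68.0 ± 14.8 CPM (SD, n = 3). The KO values spanned the whole WT range, and the log2 fold change was -0.06 ± 0.24 (SE), with a 95% interval from -0.61 to 0.49. Its paralog Dsel, a second epimerase gene, was at 116 ± 9.95 CPM in WT against 114 ± 18.4 CPM in KO, and per length it lay above Dse in 5 of 6 replicates. Chst11, which sulfates the 4 position, was at 5.53 ± 5.60 CPM in WT against 3.38 ± 1.64 CPM in KO, and per length Chst3 lay above it in 6 of 6 replicates. Of the 16 listed genes of chondroitin and dermatan sulfate synthesis these 6 were tested, and none was called in either direction. The median log2 fold change was -0.02 with the 4 members and -0.36 over Dsel and Chst11.

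B3gat2 and Chst10 belong to the synthesis of the HNK-1 epitope, a sulfated glucuronic acid on adhesion proteins and glycolipids of the nervous system. B3gat2 encodes a glucuronyltransferase that adds the sugar, and Chst10 the sulfotransferase that sulfates it. Both were low. Chst10, Entrez gene 98388 at chr1:38863867-38898177 on the minus strand, was at 11.8, 16.4 and 22.9 CPM in WT and 33.6, 15.7 and 18.2 CPM in KO. KO replicate 1 stood above the rest and the other KO replicates lay within the WT range. The means were 17.0 ± 5.57 and 22.5 ± 9.70 CPM (SD, n = 3), a log2 fold change of 0.40 ± 0.46 (SE) with a 95% interval from -0.65 to 1.45.

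B3gat2, Entrez gene 280645 at chr1:23761926-23847865 on the plus strand, had the fewest counts of the group, 18, 8 and 17 in WT and 5, 22 and 27 in KO. Its levels were 3.42, 1.99 and 3.06 CPM in WT and 1.42, 3.48 and 5.58 CPM in KO, both the lowest and the highest in KO. Counting error alone was 24.9% at the mean count of 16.2, and larger in replicates with fewer counts. The 95% interval of the log2 fold change, 0.31 ± 0.80 (SE), ran from -1.50 to 2.12. The fitted spread between replicates was 58.3%. The observed SD was 26.4% of the mean in WT, close to the counting error, and 59.5% in KO. B3gat2 also shares 2076 exonic bases, 33.5% of its exons, with Smap1 on the opposite strand, which was at 460 ± 171 CPM in WT against 332 ± 113 CPM in KO (SD, n = 3). If counting did not use the strand, reads of the abundant Smap1 and of B3gat2 cannot be told apart there.

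Sulf1, Entrez gene 240725 at chr1:12692197-12861192 on the plus strand, encodes a sulfatase that removes 6-O-sulfate from heparan sulfate at the cell surface and so alters the binding of growth factors. It stood at 35.3, 41.7 and 11.5 CPM in WT and 43.8, 15.8 and 9.51 CPM in KO. WT replicates 1 and 2 and KO replicate 1 were high, the other 3 were low, and the division ran across the genotypes. The means were 29.5 ± 15.9 and 23.1 ± 18.3 CPM (SD, n = 3), with a log2 fold change of -0.36 ± 0.65 (SE) and a 95% interval from -1.85 to 1.13. Counting error was 9.14% and the fitted spread between replicates 58.2%. The observed SD was 53.9% of the mean in WT and 79.2% in KO, so the differences among replicates went far past counting. Of the 25 listed genes of heparan sulfate synthesis and editing, Hs6st1 was the only other one tested. This gene adds the 6-O-sulfate that Sulf1 removes and stood at 145 ± 50.5 CPM in WT against 124 ± 27.5 CPM in KO, and per length it lay above Sulf1 in 6 of 6 replicates.

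The 3 replicates with high Sulf1 were also the 3 with the highest summed level of mural and fibroblast markers. That sum, over 9 of 23 listed markers, was 484, 584 and 150.0 CPM in WT replicates 1 to 3 and 778, 446 and 353 CPM in KO replicates 1 to 3. Its ranges were 150.0 to 584 CPM in WT and 353 to 778 CPM in KO, and the median log2 fold change of its 8 tested markers was -0.10, with none called. The most abundant markers, Fn1 and Dcn, and also Col3a1 and Col6a3 had higher means in KO. Prelp, Fmod, Igf1 and Lum had lower ones, and the pericyte marker Rgs5 was at or near 0. Of these, Col6a3 alone had groups that did not overlap, at 46.6 ± 6.27 CPM in WT against 79.0 ± 18.5 CPM in KO (SD, n = 3). For Spock2 the sum over 4 of 24 oligodendrocyte progenitor markers, Pcdh15, Serpine2, Neu4 and Tnr, was 258, 195 and 315 CPM in WT and 245, 381 and 271 CPM in KO. Here the groups of the marker sum overlapped and those of Spock2 did not. Of these markers the most abundant, Pcdh15, was at 161 ± 51.9 CPM in WT against 132 ± 7.24 CPM in KO (SD, n = 3), and Serpine2 at 71.5 ± 33.8 and 111 ± 36.3 CPM. Neu4 was at 17.5 ± 15.3 and 44.4 ± 30.5 CPM, and Tnr at 6.59 ± 5.97 and 11.8 ± 12.2 CPM. Pcdh15 alone had a lower mean in KO, and each of the 4 had overlapping groups. The median log2 fold change of the 4 was 0.73, with none called. The part of such cells in the Sulf1 and Spock2 values was not tested.

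**Figure D3:**
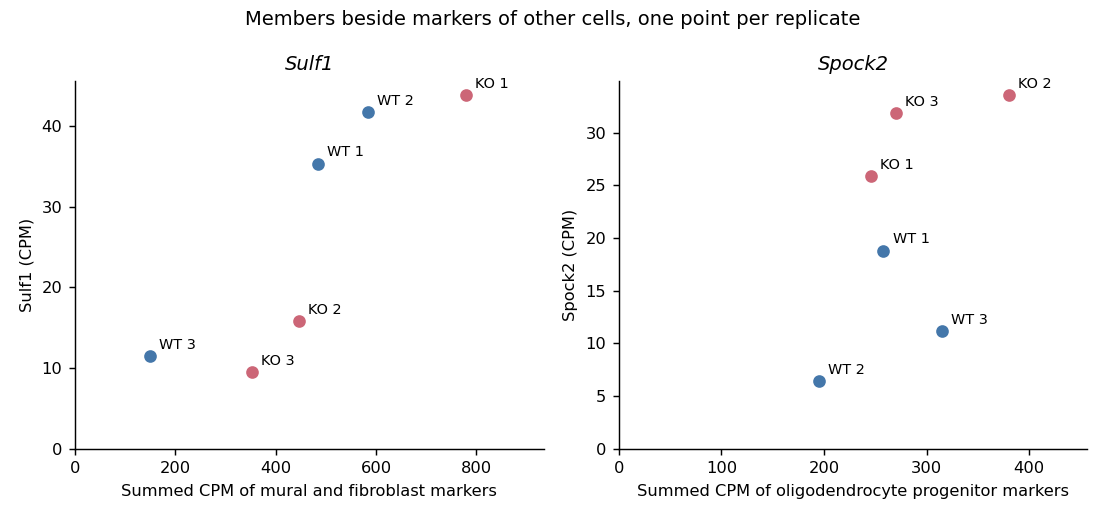
Sulf1 against the summed CPM of mural and fibroblast markers (left) and Spock2 against the summed CPM of oligodendrocyte progenitor markers (right), one point per replicate, WT in blue and KO in red, all axes in CPM and starting at 0. WT replicates 1 and 2 and KO replicate 1 are high on both axes at left, and at right every KO point lies above every WT point while the marker sums overlap.

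The steps before and beside chain building gave no called gene. Timp3, a tissue inhibitor that blocks ADAMTS proteases, was the 1 of 12 listed inhibitors and activators tested, at 200.2 ± 70.4 CPM in WT against 231 ± 123 CPM in KO (SD, n = 3), and per length Adamts4 lay above it in 6 of 6 replicates. Fam20b, the kinase that phosphorylates the xylose of the linker, was at 273, 252 and 266 CPM in WT and 237, 219.8 and 251 CPM in KO. Its KO values all lay below its WT values, by a small margin, and it was not called (edgeR log2 fold change -0.16 ± 0.12, SE, adjusted p = 0.994). Of the enzymes that supply sugar nucleotides and sulfate, Bpnt1, which clears a by-product of sulfation, was at 2346 ± 340 and 2638 ± 91.0 CPM. Uap1, which makes the hexosamine donor, was at 998 ± 273 and 852 ± 48.5 CPM, and Uxs1, which makes the xylose donor, at 187 ± 50.4 and 194 ± 24.0 CPM. All 3 of these had overlapping groups. Tnr, tenascin R of perineuronal nets, was at 6.59 ± 5.97 and 11.8 ± 12.2 CPM, and Adamtsl5, an ADAMTS-like gene, at 3.99 ± 3.53 and 7.69 ± 3.07 CPM. No gene of lysosomal breakdown was in the table.

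Leaving the members out, the lists named 207 genes, of which 25 were in the table and 18 were tested. edgeR called 0 of the 18 at an adjusted p under 0.05, as in all genes tested, and 1 (Srgn) had an unadjusted p under 0.05. Their log2 fold changes were positive in 8 and negative in 10, with a median of -0.05 against -0.0064 over all genes tested. In 1 of them, Srgn, every KO value lay above every WT value, and in 1, Fam20b, every one below.

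**Figure D4:**
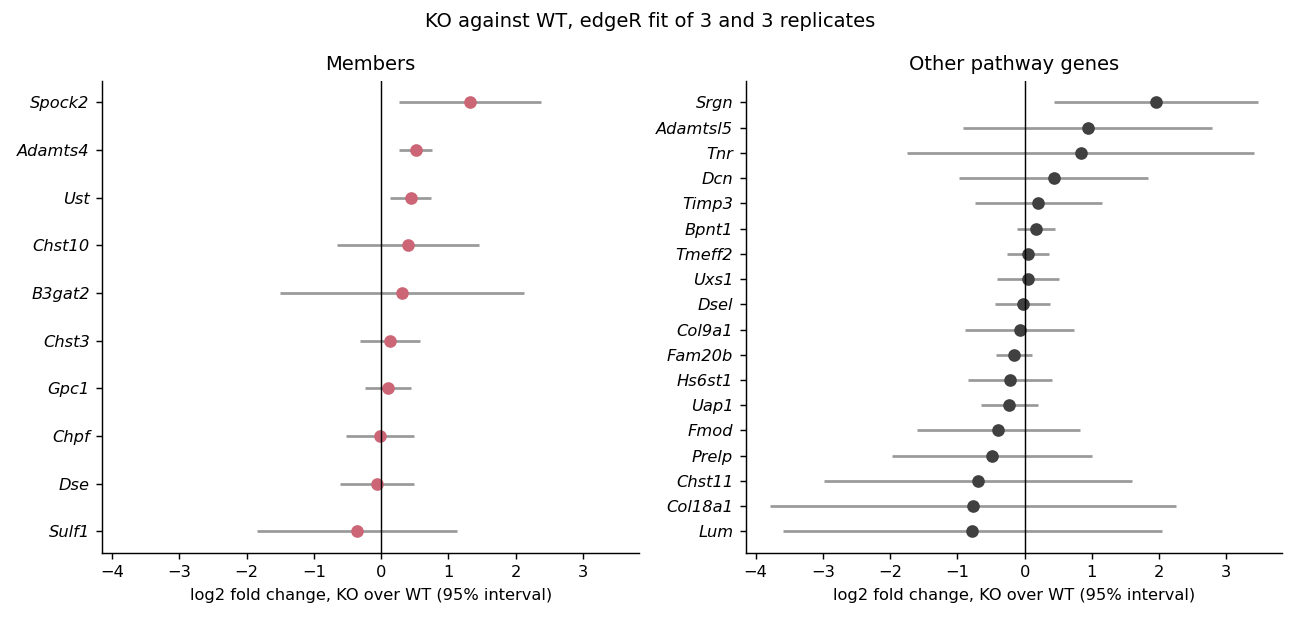
Log2 fold change of KO over WT (horizontal axis, 0 marked) with its 95% interval from the edgeR fit of 3 and 3 replicates, for the 10 members (left) and 18 other tested pathway genes (right). Spock2 has the highest value of the members at 1.32 and Sulf1 the lowest at -0.36, and the intervals of B3gat2 and Sulf1 are the widest of the members. The members were chosen with this contrast known, so their intervals are a description.

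The members were ordered by level per kilobase of the longest transcript, as CPM divided by its length in kilobases. Statements of abundance made in CPM alone take no account of length. On this scale, in means over the 6 replicates, Adamts4 stood at 1819, Gpc1 at 203.7, Chpf at 78.8, Ust at 77.8, Chst3 at 44.3 and Dse at 15.8. Below them came Sulf1 at 4.70, Spock2 at 4.06, Chst10 at 3.58 and B3gat2 at 0.559. Adamts4 was thus 8.93 times the next member, and 97.4% of the 1336 tested genes with a known length lay below it. Among neighbours in this order the upper gene was higher in 6 of 6 replicates except for 3 pairs. Chpf lay above Ust, Sulf1 above Spock2 and Spock2 above Chst10 in 3 of 6 replicates each, so on this length scale these neighbours did not differ beyond their spread. In WT alone Chst10, at 3.08, had a higher mean than Spock2, at 2.32. Tmeff2, at 5739 on the same scale, exceeded Adamts4 in 6 of 6 replicates. With the union of a gene's exons as its length, Sulf1 was at 2.33, above Spock2, at 3.85, in 1 of 6 replicates, and Spock2 lay above Chst10, at 1.65, in 5 of 6.

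**Figure D5:**
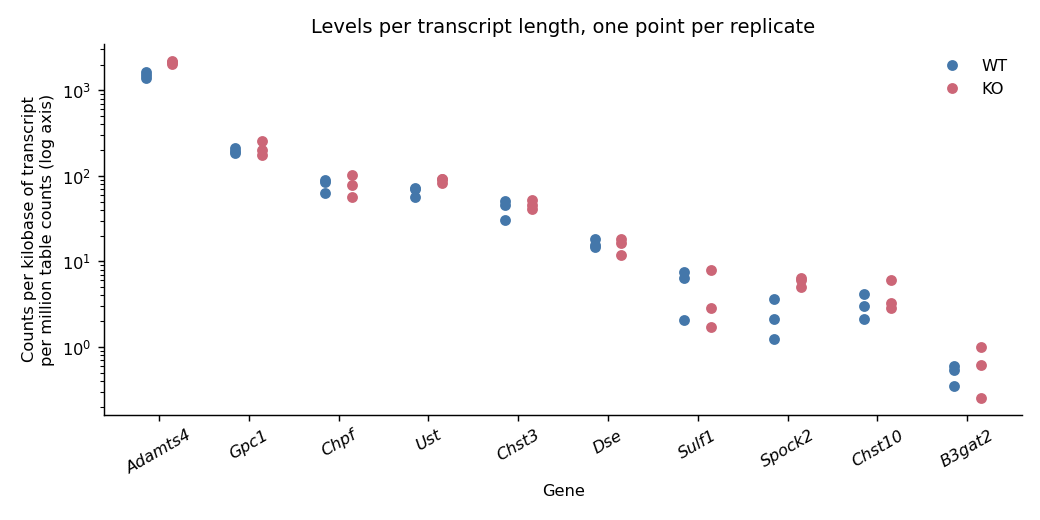
CPM per kilobase of the longest transcript (log axis) for the 10 members in order of their mean, one point per replicate, WT in blue and KO in red. Adamts4 has a mean of 1819 and B3gat2 one of 0.559, and the points of Sulf1, Spock2 and Chst10 overlap.

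The members also differed in their spread between replicates, both as fitted and as observed. The fitted spread between replicates was 11.5% for Adamts4, 15.3% for Ust, 15.6% for Gpc1, 19.5% for Chst3 and 21.6% for Chpf, all under the median of 22.3% over the genes tested. It was 27.3% for Dse and 43.8 to 58.3% for Spock2, Chst10, Sulf1 and B3gat2, the 4 lowest members per length. The pair of libraries of each replicate was compared for each member, 60 comparisons in all. By an exact two-sided binomial test 2 of the 60 had p under 0.05 and 0 did after Benjamini-Hochberg adjustment (smallest p = 0.00306, adjusted 0.184). The labels speak of 3 biological replicates and do not say whether each was 1 animal or a pool.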

How the data were processed

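RNA of sorted oligodendrocytes was sequenced as single-end reads. The authors deposited unnormalized counts of reads for each gene in each library. The submitters' processing notes name HISAT2, featureCounts, SAMtools 1.4.1, fastp, FastQC, CASAVA 1.8.2, DESeq2 1.38.1 and the build mm10. The annotation, the strand setting and the handling of multiply matching reads were not given in the sources used here. Of 2398 complete lines, 2226 identifiers matched a RefSeq symbol and 172 did not, and a further incomplete line (1) was not used. Library totals ran from 1838676 to 3060812 counts.

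The 2 libraries of a replicate were summed. KO and WT, 3 replicates each, were compared in edgeR 4.0.16 (R 4.3.3) with TMM factors (0.951 to 1.05), filterByExpr and a robust quasi-likelihood fit over 1484 genes, Benjamini-Hochberg adjusted over all of them at 0.05, after tests on simulated counts. Profiles and observed SDs of log2 CPM used a prior count of 2. Intervals cover the spread between replicates. Counting errors cover counting alone and were taken at a gene's mean count over the 6 replicates. Lengths are GENCODE M21. Alternatives were other size factors, filters, DESeq2 1.42.0, limma-voom (limma 3.58.1), a replicate block, single libraries and leaving out each replicate, with DESeq2 without each replicate added after seeing the data.

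Members and lists were chosen with earlier results of these data known. Named were the members, up to 3 other tested genes of highest CPM per list, the 5 genes closest to Adamts4, overlapping genes, and markers of highest CPM (Ptprc and Fcer1g for microglia, for example). Srgn, Igf1, Lum, Rgs5, Col3a1, Col6a3 and Neu4 were named after their values were seen. Some genes are not reported here.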

Additional observations from a re-analysis of the deposited data

How the results depend on the processing

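edgeR called 0 genes at an adjusted p under 0.05 under every setting tried, and limma-voom called 0. DESeq2 on 6 replicates called 6 genes higher and 1 lower in KO. In DESeq2 without each replicate in turn, the number higher was 0 without KO replicate 2 and 8, 10, 3, 6 and 11 without WT replicates 1 to 3 and KO replicates 1 and 3, and the number lower ranged from 0 to 3. The members were chosen with this contrast known, so their values under other settings describe the fits and support no difference. Over all alternatives the log2 fold change stayed between 0.47 and 0.58 for Adamts4, 0.33 and 0.52 for Ust, and 1.04 and 1.79 for Spock2. The other 7 members changed sign when 1 replicate was left out, with ranges of -0.062 to 0.22 for Gpc1, -0.25 to 0.18 for Chpf, -0.042 to 0.28 for Chst3, -0.010 to 0.68 for Chst10, -0.20 to 0.10 for Dse, -0.19 to 0.67 for B3gat2 and -1.22 to 0.011 for Sulf1. From the second libraries alone Chpf stood at 0.029, and from the first alone Dse at 0.038. These 7 differences lie within their errors, and the cause of the sign changes was not tested. B3gat2 gave no value with a filter of 10 CPM or from single libraries, where it was not tested. By the union of exons the levels of Gpc1 and Chst10 per kilobase moved to 164.9 and 1.65. By Pearson r, 4 of the 5 genes closest to Adamts4 were shared.

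Same-numbered WT and KO replicates had correlations of -0.0032, -0.30 and 0.14 between their deviations from the group means. Those of differently numbered replicates ran from -0.34 to 0.35. With 3 replicates per genotype these values cannot show whether the replicate numbers paired the samples. With a replicate block 0 genes were called, 49 had an unadjusted p under 0.05, and Adamts4 stood at 0.51.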
